A study of Mus musculus with 6 samples.

Results

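The myelin genes of mature oligodendrocytes were followed in the cerebral cortex of mice of 6 and 24 months of age. They were chosen by name as 9 genes, Mbp, Mog, Mag, Mobp, Cnp, Cldn11, Mal, Opalin and Ermn, of the 55421 genes in the deposited tables. Each of the 9 was found once, and all passed the minimum of 10 counts summed over the 6 libraries. The cortex came from male wild-type (WT) C57BL/6J mice anaesthetised with isoflurane before death, 3 of 6 months (mice 10, 11 and 17) and 3 of 24 months (mice 2, 4 and 5), with 1 library per mouse from 10 ng of total RNA. The question of the comparison was how the transcriptome of the cortex differs between adult and old animals. Libraries held 29495379 to 36494240 counts, and those of 24 months had a count on more genes (40208 to 43561) than those of 6 months (33974 to 35651). Markers of cortical projection neurons summed to 729 to 950 counts-per-million (CPM) in each library, those of striatum to 72.0 to 89.3 CPM, those of choroid plexus to 18.8 to 45.6 CPM and those of ependyma to 2.56 to 4.35 CPM.

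Oligodendrocytes are the glial cells that wrap axons of the central nervous system in myelin, a stack of membrane that speeds conduction and feeds the axon. Compact myelin is held together at its cytoplasmic faces by basic proteins and in the membrane by membrane-spanning proteins, whereas glycoproteins sit on its outer and axonal surfaces. The transcripts of these proteins are made mostly by mature oligodendrocytes, under transcription factors that include SOX10 and MYRF. In cortex the cells are denser in the deep layers and in the adjoining white matter than near the surface. In bulk tissue, fewer oligodendrocytes and less RNA of these genes per oligodendrocyte cannot be told apart.

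The 9 genes lie on 8 chromosomes. In the GENCODE vM21 annotation of GRCm38, Mog (ENSMUSG00000076439.12) spans chr17:37010743-37023398 on the minus strand, Mag (ENSMUSG00000036634.15) chr7:30899176-30914873 on the minus strand and Mobp (ENSMUSG00000032517.16) chr9:120149707-120181484 on the plus strand. Cnp (ENSMUSG00000006782.16) spans chr11:100574904-100591729 and Cldn11 (ENSMUSG00000037625.7) chr3:31149920-31164324, both on the plus strand. Mal (ENSMUSG00000027375.14) spans chr2:127633226-127656695, Ermn (ENSMUSG00000026830.9) chr2:58045113-58052864 and Opalin (ENSMUSG00000050121.9) chr19:41061710-41077113, all on the minus strand. Mbp (ENSMUSG00000041607.17) has 16 annotated transcripts over 8469 exonic bases, which a gene count does not tell apart.

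The sequence before the start site was read for 8 members from RefSeq (GRCm38.p6), in windows of 250 bases before to 50 bases after the start, and searched on both strands for the core of SOX sites (ACAAAG or ACAATG) and for CTGGNAC, a motif that holds the core of MYRF sites. The SOX core was found in 5 of the 8 members, Cnp, Ermn, Mag, Mobp and Opalin, against 28.6% of all 32817 windows. CTGGNAC was found in 4 of the 8, Cnp, Mag, Mog and Opalin, against 19.3% of all windows. CANNTG went the other way, in 3 of the 8, Cnp, Mag and Opalin, against 72.3% of all windows. A member was counted if any of its windows matched, and Mag has 3 windows, so these shares of single windows are not quite the same measure. The SOX core and CTGGNAC do not overlap in the stretches printed here. A match describes the letters and shows no binding. The upstream stretches of 3 genes are shown. That of Mobp held the most SOX cores (6), and that of Cnp held both the SOX core and CTGGNAC, as did that of Mag, which is not shown. Cldn11 is included because its level relative to the other members differed between the ages in the data below. Capitals mark the matches of the SOX core and CTGGNAC but not those of CANNTG, and each stretch ends at the base before the first annotated start. Mobp is chr9:120149492-120149706 (plus strand), Cnp chr11:100574689-100574903 (plus strand) and Cldn11 chr3:31149670-31149919 (plus strand).
Mobp: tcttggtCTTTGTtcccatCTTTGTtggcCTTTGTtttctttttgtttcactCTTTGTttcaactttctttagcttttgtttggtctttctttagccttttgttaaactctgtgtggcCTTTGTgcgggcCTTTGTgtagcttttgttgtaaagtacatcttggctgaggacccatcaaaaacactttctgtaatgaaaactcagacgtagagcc
Cnp: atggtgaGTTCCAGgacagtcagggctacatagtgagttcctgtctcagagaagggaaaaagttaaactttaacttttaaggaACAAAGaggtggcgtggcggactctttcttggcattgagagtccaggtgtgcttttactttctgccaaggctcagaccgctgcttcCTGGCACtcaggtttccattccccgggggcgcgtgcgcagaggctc
Cldn11: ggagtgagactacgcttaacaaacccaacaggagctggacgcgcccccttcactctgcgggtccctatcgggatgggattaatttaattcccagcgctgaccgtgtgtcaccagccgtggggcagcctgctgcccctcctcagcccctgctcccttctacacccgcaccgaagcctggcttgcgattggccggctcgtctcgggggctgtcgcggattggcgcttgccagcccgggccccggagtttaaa

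Levels were compared between genes in transcripts-per-million (TPM), which take the exonic length of each gene into account. The order given here rests on those lengths. In CPM, which take no length into account, Mobp (mean 185) lay far above Mog (41.9), and Mag (68.0) lay above Cldn11 (38.1). Mbp, the basic protein that seals the cytoplasmic faces of compact myelin, was the most abundant with a mean of 588 TPM over the 6 mice and rank 207 among all genes. Its TPM values were 553, 721 and 469.7 in the 6-month mice 10, 11 and 17 and 254, 642 and 887 in the 24-month mice 2, 4 and 5. The lowest and the highest value of Mbp thus both belonged to mice of 24 months, 3.50-fold apart, whereas the 6-month mice lay within 1.53-fold.

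Cnp, the phosphodiesterase of the cytoplasmic channels of the sheath, followed at 213 TPM. Mobp, a basic protein of compact myelin (98.7 TPM), Mal, a proteolipid of membrane sorting (94.7 TPM), and Mog, a glycoprotein of the outer surface (90.0 TPM), were close together. Mobp exceeded Mal in 4 of 6 mice and Mal exceeded Mog in 4 of 6 mice, so the order of these neighbours was not the same in every mouse. Cldn11, the claudin of the tight junctions between myelin lamellae, had 74.1 TPM. Mag, a glycoprotein of the axonal surface, had 61.1 TPM and lay below Cldn11 in 5 of 6 mice. Ermn, a protein of the oligodendrocyte cytoskeleton (49.5 TPM), and Opalin, a transmembrane glycoprotein of oligodendrocytes (23.7 TPM), were lowest, in this order in 6 of 6 mice. Mbp exceeded Cnp and Cnp exceeded Mobp in 6 of 6 mice too, although the ranges over mice overlapped for every pair of neighbours in the order.

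The 9 genes together made up 0.126%, 0.161% and 0.103% of all TPM in the 6-month mice 10, 11 and 17. In the 24-month mice 2, 4 and 5 they made up 0.0623%, 0.140% and 0.184%. The old mice therefore enclosed the range of the young mice on either side.

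No myelin gene passed a test between the ages. Of the 9 members, 0 passed 1% FDR in edgeR's quasi-likelihood test on the counts, where 0 of the 32905 genes tested passed as well (0%). At 10% FDR, 0 of 9 members passed, against 18.4% of all genes tested and 26% of the 10026 genes with a mean of at least 10 CPM (0.549% higher and 25.4% lower at 24 months), a level that all 9 members reached. At an unadjusted p of 0.05 in the same test, 0 of 9 members passed, against 30.7% of all genes. With 1% FDR in the likelihood ratio test of edgeR (5.18% of all genes called) and in the Wald test of DESeq2 (0.836%), 0 of 9 passed too. The CPM of the ages overlapped for all 9 members, whereas they did not overlap for 36.3% of all genes and 47.1% of those of at least 10 CPM. The p-values set the age difference of a gene against the spread between these mice, 3 a group. That spread was estimated with the help of the other genes tested.

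The basic proteins and the enzyme of the sheath came first by abundance. Mbp had 1340.3, 1725 and 1129 CPM (TMM scaling) in the 6-month mice and 564, 1428 and 1974 CPM in the 24-month mice. All 3 mice of 6 months fell between the lowest and the highest mouse of 24 months. The means were 1398 ± 302 and 1322 ± 711 CPM (SD, n = 3 each), a log2 fold change of -0.08 (SE 0.35), with an adjusted p of 0.895 in edgeR's quasi-likelihood test. On the fold scale the 95% interval ran from 0.549 to 1.63. The mean TPM of Mbp was instead higher at 24 months (594 ± 319) than at 6 months (581 ± 128). On the scale of log2(TPM + 1), however, the difference was -0.12, so in TPM its direction depended on how the mice were averaged. With library totals in place of TMM its log2 fold change was 0.095, so it depended on the scaling too.

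Mobp had 190.1, 257 and 146 CPM at 6 months and 87.2, 182 and 249 CPM at 24 months. Its highest value was that of the 6-month mouse 11, with the 24-month mouse 5 close behind. Its log2 fold change was -0.20 (SE 0.32, adjusted p = 0.703 in edgeR). Cnp had 211, 272 and 178 CPM at 6 months and 120.1, 226 and 262 CPM at 24 months, a log2 fold change of -0.12 (SE 0.25, adjusted p = 0.772 in edgeR). It varied by 2.26-fold from the lowest to the highest mouse, less than Mbp and Mobp. Of the exonic bases of Cnp, 154 are shared with Dnajc7 on the other strand, where reads counted without strand cannot be told apart.

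The surface glycoproteins had a similar order of mice. Mog had 46.0, 52.4 and 32.5 CPM at 6 months and 20.4, 45.1 and 55.3 CPM at 24 months. Mag had 71.6, 84.4 and 54.7 CPM at 6 months and 25.5, 69.5 and 102 CPM at 24 months. In both genes the 24-month mouse 2 was lowest and the 24-month mouse 5 highest of all, with the 6-month mice between. Mag, which binds axonal gangliosides, varied most of the 9 genes between mice, by 3.99-fold. The log2 fold changes were -0.12 for Mog (SE 0.31, adjusted p = 0.821) and -0.10 for Mag (SE 0.38, adjusted p = 0.884, both edgeR).

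Among the membrane and cytoskeletal proteins, Cldn11 had the lowest fold of the 9 members. Its values were 41.9, 52.3 and 37.1 CPM at 6 months and 15.1, 37.1 and 44.9 CPM at 24 months. The mean was 43.8 ± 7.81 CPM at 6 months and 32.4 ± 15.4 CPM at 24 months (SD, n = 3 each). The 24-month mouse 2 was 2.45-fold below the next lowest mouse, the 24-month mouse 4 was level with the lowest young mouse (mouse 17), and the 24-month mouse 5 lay within the range of the young mice. The log2 fold change was -0.43 (SE 0.31, adjusted p = 0.368 in edgeR) and the 95% interval of the fold, 0.455 to 1.20, included no change.

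Mal had 78.5, 96.6 and 58.5 CPM at 6 months and 44.2, 70.2 and 84.2 CPM at 24 months. It had the smallest overall range of the 9 genes, 2.19-fold, and a log2 fold change of -0.23 (SE 0.23, adjusted p = 0.515 in edgeR). Ermn had 51.5, 62.6 and 37.5 CPM at 6 months and 19.1, 53.2 and 71.3 CPM at 24 months, with a log2 fold change of -0.08 (SE 0.38, adjusted p = 0.906 in edgeR). Opalin was the member with the most similar levels among young mice, at 18.2, 20.3 and 16.5 CPM. At 24 months it had 11.0, 20.0 and 28.0 CPM, which enclosed all the young values. Its log2 fold change was 0.10 (SE 0.27, adjusted p = 0.821 in edgeR), the only value above 0 among the 9 with TMM scaling.

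**Figure D1:**
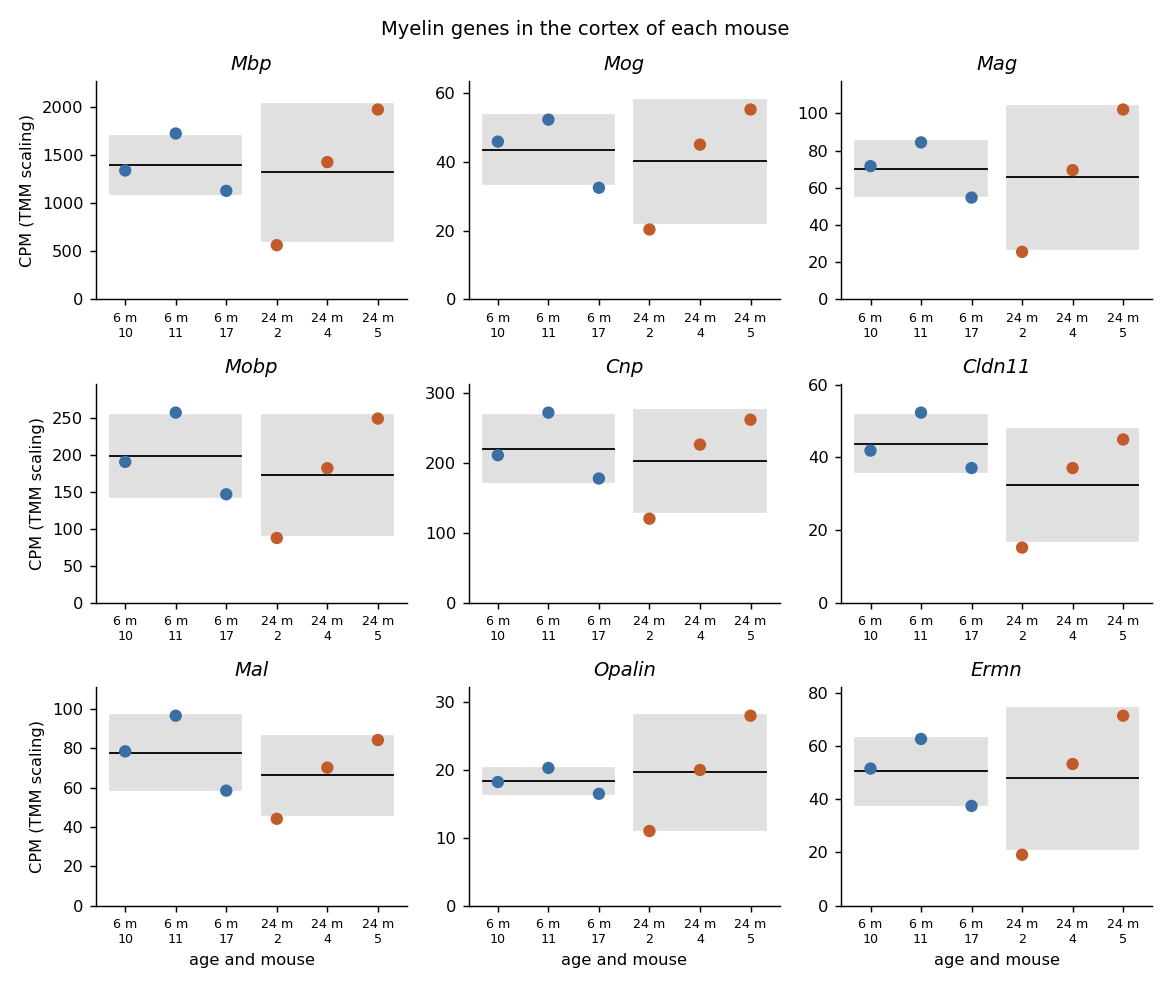
CPM (TMM scaling, vertical axis from 0) of each myelin gene in each of the 6 mice (horizontal axis, age and mouse), with the 6-month mice in blue and the 24-month mice in orange. Lines show the mean and grey bands the SD of each age (n = 3). In all 9 panels the 24-month mouse 2 has the lowest value.

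The median log2 fold change of the 9 members was -0.12, beside 0.15 for the 32905 tested genes as a whole and -0.20 for those with a mean of at least 10 CPM. Scaling by library totals moved these medians to 0.06, 0.33 and -0.01, and then 6 of the 9 members had a fold above 0, where with TMM it was 1. The sign of a small age difference therefore rested on the scaling. It rested on the mice as well. Without the 24-month mouse 2 the log2 fold change was 0.29 for Mbp, 0.30 for Mag, 0.31 for Ermn and 0.40 for Opalin, and 2 members (Cldn11, -0.09, and Mal, -0.00297) stayed below 0. Without the 24-month mouse 5 all 9 were below 0, from -0.24 (Opalin) to -0.74 (Cldn11). Opalin without mouse 2 (unadjusted p = 0.0362, adjusted p = 0.176) and Cldn11 without mouse 5 (unadjusted p = 0.0487, adjusted p = 0.145, both edgeR) were the only members under an unadjusted p of 0.05 in any leave-out.

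**Figure D2:**
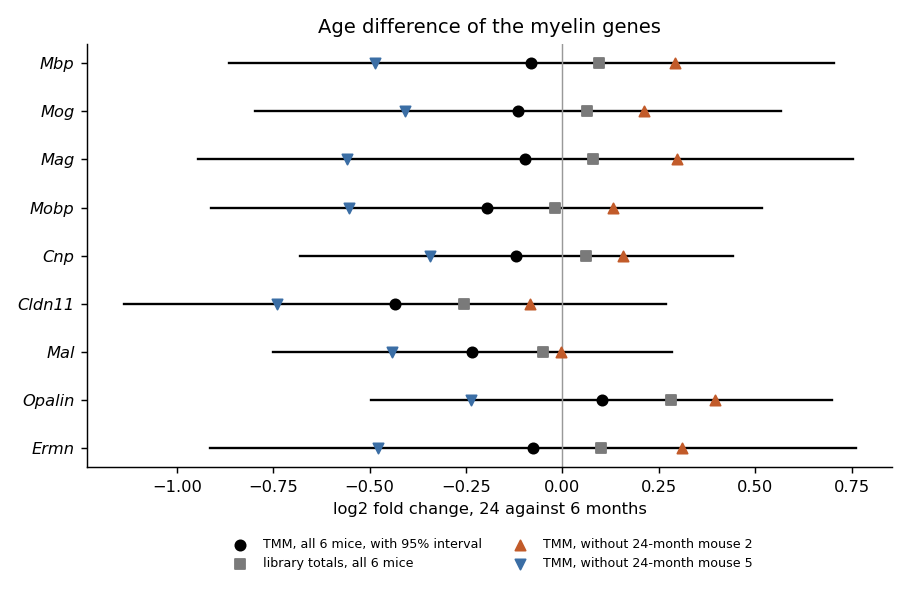
Log2 fold change of 24 against 6 months (horizontal axis) for each myelin gene, from edgeR with TMM scaling (black circles, with 95% intervals), with library totals (grey squares), without the 24-month mouse 2 (orange triangles pointing up) and without the 24-month mouse 5 (blue triangles pointing down). All 9 intervals span 0, and every gene moves up without mouse 2 and down without mouse 5.

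What the 9 genes shared was a lowest value in the 24-month mouse 2, with a similar but not identical order of the other mice. After each gene was centred on its own mean log2 CPM, the mean of the 9 was 0.14, 0.43 and -0.19 in the 6-month mice 10, 11 and 17 and -1.01, 0.13 and 0.51 in the 24-month mice 2, 4 and 5. Mouse 2 was lowest for all 9 genes, from 1.32-fold (Mal) to 2.45-fold (Cldn11) below the next lowest mouse. The 6-month mouse 17 was the next lowest for 8 genes, the exception being Cldn11. The highest mouse was the 24-month mouse 5 for 5 genes (Mbp, Mog, Mag, Opalin and Ermn) and the 6-month mouse 11 for 4 (Mobp, Cnp, Cldn11 and Mal). The points share their 6 libraries, so this likeness describes these mice.

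**Figure D3:**
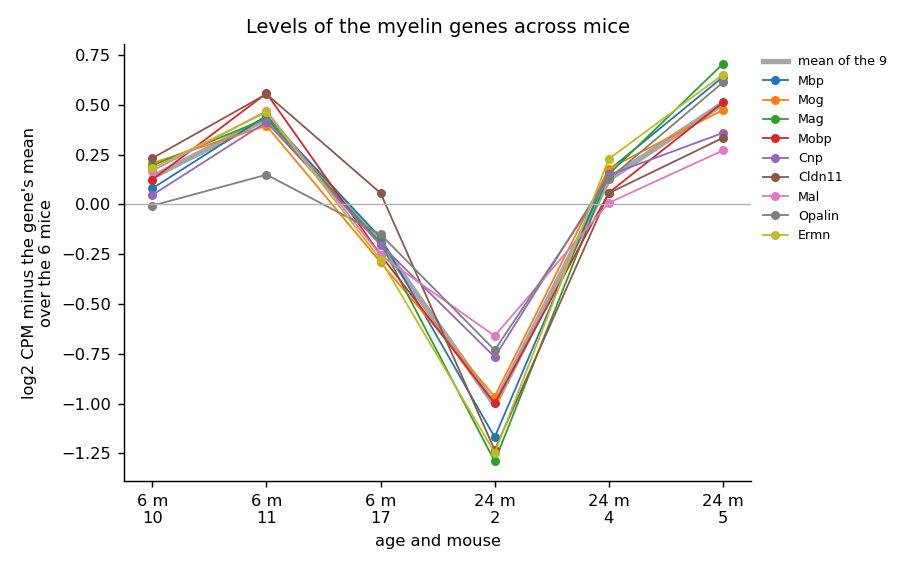
Log2 CPM of each myelin gene minus its own mean over the 6 mice (vertical axis) in each mouse (horizontal axis). Lines join the values of a gene and imply no order of the mice, and the thick grey line is the mean of the 9 genes. The 9 lines lie between -0.66 and -1.29 in the 24-month mouse 2.

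The spread between mice was wide for genes of this abundance. The SD of log2 CPM over the 6 mice was 0.41 (Mal) to 0.70 (Mag), with a median of 0.58 over the 9 members, beside a median of 0.19 over the 10026 genes with a mean of at least 10 CPM. Their SD lay from the 93.2nd (Mal) to the 98.7th (Mag) percentile of those genes. Without mouse 2 the median SD of the members was 0.30, beside 0.17 over the genes of that level. Among the 6-month mice alone the SD was 0.15 for Opalin and 0.25 (Cldn11) to 0.41 (Mobp) for the other 8, at the 71.7th percentile (Opalin) and between the 87.1st (Cldn11) and the 93.6th (Mobp), so the young mice differed among themselves as well.

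**Figure D4:**
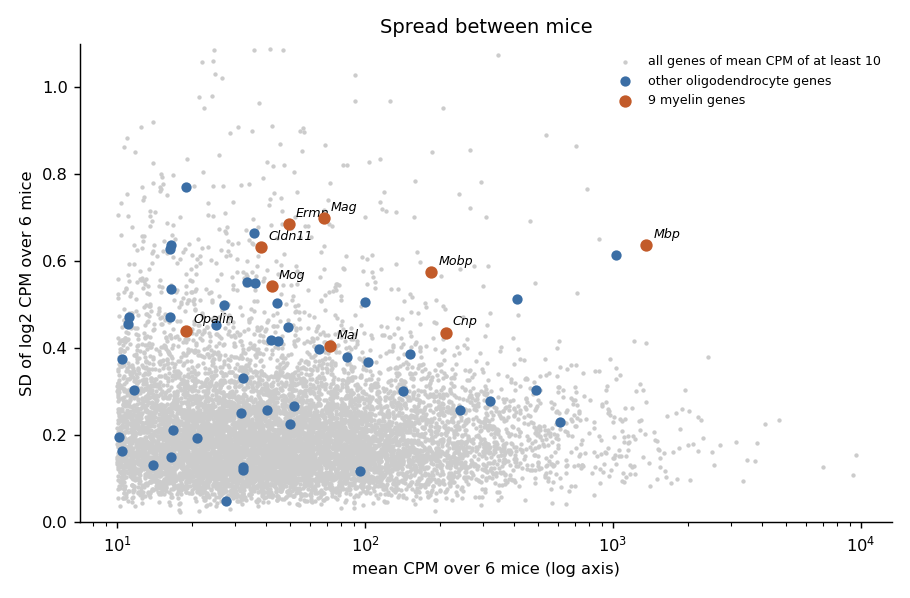
SD of log2 CPM over the 6 mice (vertical axis) against mean CPM (horizontal axis, log scale) for the 10026 genes of at least 10 CPM (grey), other oligodendrocyte genes (blue) and the 9 myelin genes (orange). The axis ends at 1.1 and leaves out 30 grey genes. The myelin genes lie between 0.41 and 0.70, in the upper part of the cloud.

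Likeness to the members was measured as the root mean square distance between a gene's centred log2 CPM and the mean centred profile of the 9 over the 6 mice. Among the 5 nearest other genes of at least 10 CPM were Fa2h (0.0498), Gpr37 (0.0895), Kcnab3 (0.107) and Pls1 (0.108), beside a median distance of 0.48 over genes of that level. Fa2h makes the hydroxylated fatty acids of myelin lipids and Gpr37 encodes a receptor of oligodendrocytes. Fa2h had 34.7, 44.3 and 28.7 CPM at 6 months and 15.5, 34.8 and 42.2 CPM at 24 months, a log2 fold change of -0.22 (SE 0.30, adjusted p = 0.645 in edgeR). It was lowest in mouse 2, as the 9 members were, which follows from its choice by likeness to their profile.

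The other genes of the lineage, in 7 lists of 62 genes, followed this profile in part. Of them 18 (29%) lay within a distance of 0.25, a limit chosen after the values were seen, and 14 of the 45 with at least 10 CPM did (31.1%), against 0.789% of the non-member genes of that level. By list these were 7 of 17 other myelin sheath proteins, 2 of 7 enzymes of myelin lipids, 4 of 7 proteins of oligodendrocyte junctions and axon contacts, 4 of 8 other genes of mature oligodendrocytes, 1 of 6 genes of newly formed oligodendrocytes, 0 of 7 genes of oligodendrocyte precursors and 0 of 10 transcription factors of the lineage. The members lay between 0.0602 (Mog) and 0.18 (Mal) from their own mean, which they make up. Outside the lineage, 1 of 7 endothelial genes was within the limit, Slco1a4 of the blood-brain barrier (0.152), and none of the 8 astrocyte, 9 microglia or 10 neuron markers was. The neuron marker Gad1 (0.265) and the astrocyte marker Fgfr3 (0.288) lay just outside it. Among all non-member genes of at least 10 CPM, 79 were within the limit, and 14 of these were on the lineage lists. Most genes with this profile were thus on none of those lists.

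At 10% FDR in edgeR's quasi-likelihood test, 5 of the 62 genes were called (8.06%, against 18.4% of all genes), with 4 lower at 24 months (8.33% of all genes) and 1 higher (10% of all genes), and 0 at 1% FDR. Of the genes of at least 10 CPM, a level that 45 of the 62 reached, 26% were called, 25.4% lower and 0.549% higher. The 4 lower genes reached that level and the higher gene (mean 8.95 CPM) did not. The lower genes were Tppp, a tubulin-binding protein (log2 fold change -0.37, SE 0.10, adjusted p = 0.0615), Nfasc, the neurofascin of nodes and paranodes that neurons make too (-0.42, SE 0.13, adjusted p = 0.0799), Sox8, a transcription factor related to SOX10 (-0.76, SE 0.15, adjusted p = 0.0518) and Gpr17, a receptor of newly formed oligodendrocytes (-0.75, SE 0.17, adjusted p = 0.0526). The higher gene was Olig2, a transcription factor of the whole lineage (0.43, SE 0.14, adjusted p = 0.0809). These calls depended on the mice, as did those over all genes. Leaving out the 6-month mouse 10 or 11 or the 24-month mouse 2 or 4 left 0 calls among the 62, where 0%, 0.00312%, 0.585% and 0% of all genes were called. Without the 6-month mouse 17 there were 3 (7.72% of all genes), and without the 24-month mouse 5 there were 8 (25.6% of all genes). The median log2 fold change of the 62 genes was -0.08.

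Some genes of these lists varied less than the members. Sirt2, a deacetylase found in myelin, had 101, 101 and 96.8 CPM at 6 months and 81.0, 96.8 and 96.8 CPM at 24 months. Cmtm5 had 25.7, 27.7 and 28.2 CPM at 6 months and 27.8, 27.1 and 27.6 CPM at 24 months, and Tcf7l2 28.9, 31.3 and 30.7 CPM at 6 months and 30.3, 34.8 and 36.3 CPM at 24 months. In mouse 2 Sirt2 was thus lowest but less far below the rest than the 9 members, and the other genes were within the range of the 6-month mice. They were picked after their values were seen.

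By the level within each list, the most abundant sheath proteins included Tppp and Omg (-0.34, adjusted p = 0.112), and the lipid enzymes by Cers2 (-0.08, adjusted p = 0.746), Fa2h (-0.22, adjusted p = 0.645) and Aspa (0.24, adjusted p = 0.718), all log2 fold changes of edgeR. The junction and contact proteins were led by Nfasc, Cadm4 (0.18, adjusted p = 0.685) and Cntn2 (-0.37, adjusted p = 0.301), and the transcription factors by Olig1 (-0.17, adjusted p = 0.508), Tcf7l2 (0.16, adjusted p = 0.338) and Zfp536 (-0.14, adjusted p = 0.578). Of the other genes of mature cells, Enpp2 (-0.33, adjusted p = 0.185), Trf (0.11, adjusted p = 0.834) and Car2 (-0.09, adjusted p = 0.755) had the highest levels. Of the precursor genes these were Pdgfra (-0.21, adjusted p = 0.380), Lhfpl3 (-0.16, adjusted p = 0.470) and Vcan (0.04, adjusted p = 0.877), and of the genes of newly formed cells Fyn (-0.18, adjusted p = 0.263), Itpr2 (-0.13, adjusted p = 0.581) and Gpr17. Apart from Tppp, Nfasc and Gpr17 none of these passed 10% FDR.

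Because the 9 genes moved together, their levels were also set against each other within a mouse, as log2 CPM minus the mean log2 CPM of the other 8 members, a measure that cancels the library scaling. Cldn11 was the 1 member of 9 whose ages then did not overlap. Of the genes of at least 10 CPM set against the mean of the 9, 0.299% (higher) and 0.16% (lower) did not overlap. These shares are no close yardstick, since most of those genes do not share the profile of the members. Of the 18 other oligodendrocyte genes within the distance limit of that profile, 6 were higher in every old mouse and 1 was lower. With so few mice a gene can part by chance, and whether 1 of 9 exceeds this was not tested. Cldn11 was at -1.30, -1.27 and -1.13 in the 6-month mice 10, 11 and 17. In the 24-month mice 2, 4 and 5 it was at -1.67, -1.49 and -1.60. Relative to the other myelin genes it was therefore lower in every old mouse, by a mean of -0.35 on the log2 scale (SD 0.09 within either age). The difference was between -0.30 and -0.40 with any 1 mouse left out. As each value is set within a mouse, leaving out a mouse could not make the ages overlap. Against Mbp alone the difference was -0.32, and the ages did not overlap. As the gene was singled out by this result, it was given no test.

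For the other 8 members the ages overlapped. Mog and Mobp kept the most constant share, with a range over the 6 mice of 0.19 and 0.22 on this log2 scale. Mal (0.65), Opalin (0.63) and Mag (0.54) varied most. In mouse 2 Mal (0.07) and Opalin (-2.18) were at their highest on this scale and Mag (-0.82) at its lowest. The opposite ends were the 24-month mouse 5 for Mal (-0.59) and Mag (-0.27) and the 6-month mouse 11 for Opalin (-2.81). Opalin was higher relative to the others at 24 months by a mean of 0.29, with values of -2.65, -2.81 and -2.44 at 6 months and -2.18, -2.49 and -2.37 at 24 months. The 24-month mouse 4 lay below the 6-month mouse 17, so that the ages overlapped.

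Set against the mean of the 9 members in the same way, 8 of the other 62 genes were higher in every old mouse and 2 were lower in every old mouse. The low shares over the genes of at least 10 CPM, 0.299% and 0.16%, are no close yardstick, since most of those genes do not share the profile of the members and their relative values range more widely. The higher genes were Bcas1 (0.29), Anln (0.28), Hapln2 (0.45), Gjb1 (0.29), Myrf (0.61), Trf (0.28), Il33 (0.44) and Gpr37 (0.12), each a mean log2 difference. Hapln2 encodes a link protein of the matrix at nodes, Gjb1 the connexin 32 of myelin gap junctions, Trf transferrin and Il33 a cytokine stored in nuclei. The lower genes were Ugt8a (-0.30), the galactosyltransferase of myelin galactolipids, and Klk6 (-0.67), a secreted protease, which had less than 1 CPM in every mouse. Some of these values rested on 1 mouse, since Myrf was at 0.26 without the 6-month mouse 10, Gpr37 at 0.06 without the 6-month mouse 11, and Il33 at 0.28 and Klk6 at -0.42 without the 24-month mouse 2. These 10 genes are named for this result and were given no test of it.

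Ugt8a had 18.5, 22.4 and 15.9 CPM at 6 months and 6.56, 15.3 and 20.6 CPM at 24 months, so its ages overlapped in CPM and parted only relative to the members. Hapln2 had 13.5, 18.4 and 12.2 CPM at 6 months and 9.24, 18.8 and 26.5 CPM at 24 months, with the same overlap. Relative to the members Hapln2 was at -2.78, -2.64 and -2.61 at 6 months and at -2.19, -2.30 and -2.19 at 24 months. With Mbp alone as the reference the ages overlapped for Bcas1, Gpr37 and Myrf.

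**Figure D5:**
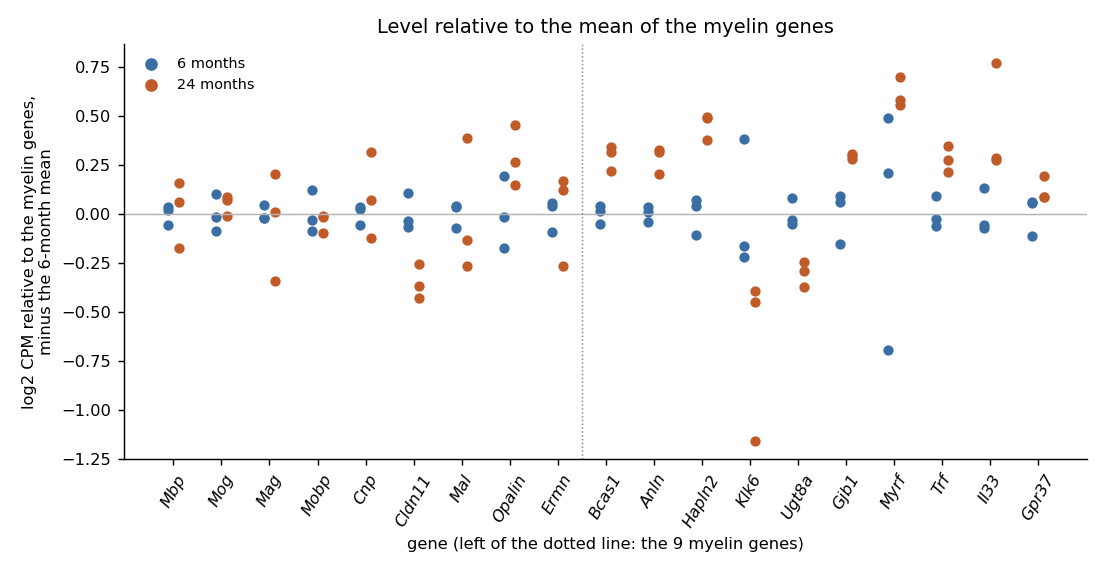
Log2 CPM relative to the myelin genes in the same mouse, minus the 6-month mean of that quantity (vertical axis), for the 9 myelin genes (each against the other 8) and, right of the dotted line, the 10 other oligodendrocyte genes whose ages did not overlap (against the mean of the 9). Each point is a mouse, in blue for 6 and orange for 24 months. Of the myelin genes, Cldn11 has all 3 old mice below the young mice.

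Other cell types were measured in the same libraries. The summed CPM of the endothelial list (7 genes) was lowest in the 24-month mouse 2 too, at 103 against 148 to 192 in the other mice, and so was that of the neuronal list (10 genes), at 7226 against 8437 to 11573, a sum made up mostly of Snap25 and Syt1. That of the cortical projection neuron list (6 genes) was 775 in mouse 2 and lowest in the 24-month mouse 4 (729). The microglial list (9 genes) stayed between 487 and 517 CPM. The astrocyte list (8 genes) stayed between 3253 and 3750 CPM, a sum made up mostly of Slc1a2 (mean 1542) and Slc1a3 (mean 962). Gfap of this list was at 290.3 CPM in mouse 2, 307 in mouse 4 and 131 to 174 in the other mice. Of the 8 astrocyte genes, 3 had a log2 fold change above 0 with TMM and 5 below. Mouse 2 also had the fewest counts. The part of these differences in the low myelin genes of mouse 2 was not tested.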

How the data were processed

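RNA-seq counts and TPM of 6 cortex libraries were used. The authors trimmed reads with Trim Galore (0.6.4), mapped them to GRCm38 with STAR (2.7.3a) and counted them on exons per gene with featureCounts (Subread 2.0.0), splitting multi-mapped reads by the stated options, although 100% of the deposited counts were whole numbers. The deposited TPM values were computed by the authors from these counts and exonic lengths. No strand option is among the stated changes to the counting defaults, so reads were counted without strand.

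Counts were tested with edgeR 4.0.16 (R 4.3.3): TMM scaling, at least 10 counts over the 6 libraries, the quasi-likelihood test of age without covariates, with p-values of the 32905 genes tested adjusted together (Benjamini-Hochberg) and read at 1%, as in the paper, and at 10%. The paper names no test within edgeR. Log2 CPM used a prior count of 2. TPM served for levels, ranks and shares. Alternatives were DESeq2 1.42.0 (whose adjusted p was given for 27160 genes), limma 3.58.1 on log2(TPM + 1), other scalings and filters, and each mouse left out. One symbol was read under its current name (Septin4). Totals of 29495379 counts or more put at least 357 counts on each member in each library, so counting error is small beside the spread between mice.

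Members and gene lists were chosen with earlier results of these data known. The genes named are the 9 members, the 3 most abundant of each other oligodendrocyte list, the 5 nearest profiles and any list gene past 1% FDR, with a few of these left out of the text, and others marked as chosen after their values were seen, as are the genes called at 10% FDR and those whose relative levels did not overlap. Promoter windows are those of RefSeq (GRCm38.p6).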

Additional observations from a re-analysis of the deposited data

How the results depend on the processing

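No paired analysis was possible because the ages share no mouse number. The counts of members called at 1% and 10% FDR stayed at 0 under all 16 settings (DESeq2 size factors, library totals, TMM over genes of at least 1 CPM, 3 filters, the likelihood ratio and exact tests, DESeq2, limma on TPM and each mouse left out), but at 10% FDR the share of all genes called was itself 0% without mouse 10 and without mouse 4, 0.00312% without mouse 11, 0.585% without mouse 2, 0.162% with limma on TPM and 0.418% with only genes of at least 1 CPM, so a count of 0 there says nothing about the members. The count under an unadjusted p of 0.05 was 0 to 1 with a mouse left out and 0 otherwise. The count of members whose ages do not overlap was 0 to 1 with a mouse left out, Cldn11 without the 24-month mouse 5, where 52.1% of all genes did not overlap. Of 144 recomputed log2 fold changes of members, 31 changed sign and 0 passed 1% FDR, and the smallest adjusted p was 0.145. With library totals they were 0.095 (Mbp), 0.065 (Mog), 0.079 (Mag), 0.062 (Cnp) and 0.099 (Ermn). With TMM over genes of at least 1 CPM, and with only those genes tested, they were 0.059 (Mbp), 0.027 (Mog), 0.042 (Mag), 0.025 (Cnp) and 0.062 (Ermn), and with filterByExpr 0.020 (Mbp), 0.0043 (Mag) and 0.024 (Ermn). With a mouse left out they ran from -0.49 to 0.29 (Mbp), -0.41 to 0.21 (Mog), -0.56 to 0.30 (Mag), -0.55 to 0.13 (Mobp), -0.34 to 0.16 (Cnp), -0.74 to -0.09 (Cldn11), -0.44 to -0.00297 (Mal), -0.24 to 0.40 (Opalin) and -0.48 to 0.31 (Ermn). Leaving out mouse 11 (6 months) reversed 6 signs, leaving out mouse 2 (24 months) 6, and leaving out mouse 5 (24 months) that of Opalin. The 5 other oligodendrocyte genes called at 10% FDR became 3 with filterByExpr (7.51% of all genes called), 0 with only genes of at least 1 CPM, 0 with limma on TPM, and 0 to 8 with a mouse left out (0% to 25.6% of all genes), so they moved with the calls over all genes. With library totals 3 of the 5 calls were higher, where with TMM it was 1. Another reference and left-out mice for the relative levels, and left-out mice for the overlap, were added after seeing the data.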
